A study of Homo sapiens with 34 samples.

Results

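The untreated NALM-6 cells of this series, a human B-cell acute lymphoblastic leukemia (B-ALL) line labelled ETV6-PDGFRB, are described here against the untreated cells of the other 2 lines. They were chosen by their labels as the 3 NALM-6 samples given the solvent DMSO for 3 days, 3 of the 34 samples of the series. They were set beside 3 DMSO samples of RS4;11, a B-ALL line labelled MLL-AF4, and 2 DMSO samples of BV-173, a B-ALL line labelled BCR-ABL. A second control came from the same lines, 3 samples each, which carried a scrambled shRNA from a lentivirus and were sorted 4 days after transduction. The remaining groups were 1 µM palbociclib for 3 days and an shRNA against *CCND3* (sorted like the scrambled one), and they are used here only to see whether a difference between the lines stayed. Each genotype is represented by 1 cell line, so a difference between genotypes and a difference between lines cannot be told apart.

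B-ALL cells are arrested at an early step of B-cell development, at which the immunoglobulin genes are being recombined by the RAG proteins and a surrogate immunoglobulin is carried on the surface as the pre-B-cell receptor. PAX5, EBF1 and FOXO1 are the transcription factors that set up and maintain this stage. Leukemias of this type are grouped by their driver lesion, commonly a gene fusion, and the groups are known to differ in their receptor kinases, homeobox genes and surface antigens. NALM-6 is widely used as a pre-B-ALL model.

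The deposited tables give 1 level per gene and group, pooled over the samples, so no SD and no test between lines could be had, the depth per sample is unknown, and all differences are descriptions of these groups. Each line stood in its own tables, and every column was scaled to a sum of 1000000, so that levels are given in ppm of the column sum. Setting the lines side by side therefore assumes that their columns are comparable after that scaling, and the line and the table it stood in cannot be told apart. Before scaling the columns summed to between 17810468 and 20756235 units, and 14763 to 15944 genes were listed per table. No level was exactly 0. A level under 3 units as deposited, which is 0.145 to 0.168 ppm depending on the column, is called under the floor here, and a fold against such a level is a lower bound computed at the floor. As a scale for the error, the 2 controls of 1 line were compared with each other. The absolute log2 ratio of scrambled shRNA over DMSO had a median of 0.26 in NALM-6, 0.18 in the MLL-AF4 line and 0.20 in the BCR-ABL line, and 5.37%, 2.23% and 2.88% of the genes were at least 2-fold apart. The 2 controls differ in solvent, virus, sorting and day.

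The B-cell precursor identity of the NALM-6 samples was checked on 11 markers. All 11 were read in NALM-6 with DMSO, from 96.1 ppm for *CD79A* to 1292 for *RAG1*. Short sets of defining markers were used for other lineages. Of 4 T-cell markers, 2 were listed and both were under the floor, and of 5 erythroid and megakaryocyte markers 1 was listed, also under the floor. The summed level of the 5 myeloid markers was 5.08, against 2.67 and 2.88 in the other lines, with *LYZ*, the gene of lysozyme, at 4.28. Of 5 stromal markers *COL1A1* was listed, at 1.61 against 6.17 in the MLL-AF4 line. On the longer lists used below, the T-cell gene *CD4* was 2.71 and the stromal gene *PDGFRA* was 377. In bulk RNA, fewer cells that express a gene and less of its RNA per cell cannot be told apart.

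Across the genome, 13788 genes were listed in all 3 DMSO tables, and 11660 of them reached 1 ppm in at least 1 line. Of these, 1319 (11.3%) were at least 2-fold higher in NALM-6 than the geometric mean of the other 2 lines, and 1650 (14.2%) were at least 2-fold lower. The median log2 difference of all genes was 0.09. Among the higher genes, 659 were 2-fold above both lines taken singly, 211 above the MLL-AF4 line only and 449 above the BCR-ABL line only. Among the lower genes, 1046 were 2-fold below both, 360 below the MLL-AF4 line only and 244 below the BCR-ABL line only.

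With scrambled shRNA in place of DMSO the balance turned, with 14.4% of 11869 genes higher (1708) and 11.5% lower (1370), and the median of all genes was 0.19. Of the genes that were higher with DMSO, 1067 of 1256 (85.0%) were again 2-fold higher with scrambled shRNA, and 9 had the opposite sign. Of those that were lower with DMSO, 1136 of 1559 (72.9%) were again 2-fold lower, and 39 had the opposite sign. Across 11481 genes the 2 sets of differences had a Pearson correlation of 0.95 and a Spearman correlation of 0.86, which is a description across genes that share the same lines and scaling. A stricter call, made on genes listed in all 6 tables, required in addition that the 4 NALM-6 groups and the 8 groups of the other lines did not overlap. By that rule, 767 of 11948 genes (6.42%) were higher in NALM-6 in every group and 856 (7.16%) were lower.

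**Figure D1:**
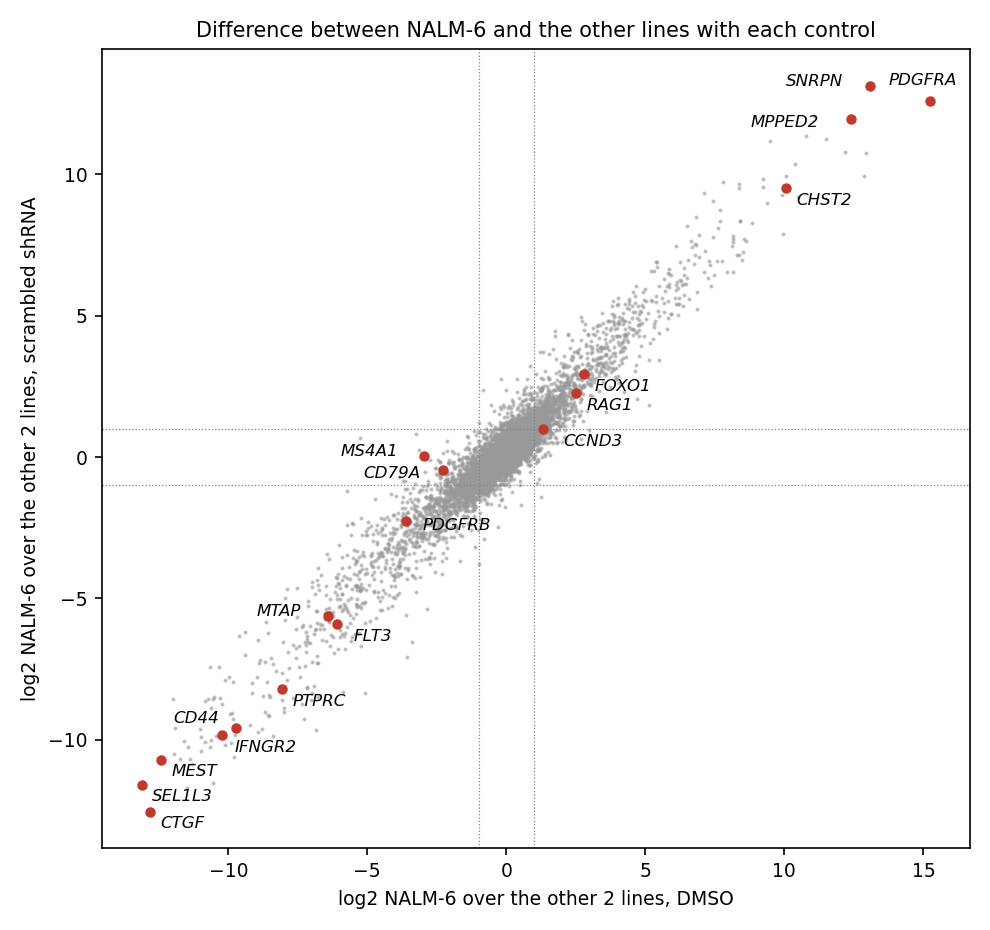
Each point is a gene, with the log2 ratio of NALM-6 over the geometric mean of the other 2 lines with DMSO on the x axis and with scrambled shRNA on the y axis, and dotted lines mark 2-fold. The 11481 genes lie along the diagonal, and *CD79A* and *MS4A1* are lower with DMSO than with scrambled shRNA. Levels under the floor are drawn as deposited, so the outermost ratios overstate what the levels can show.

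The label of NALM-6 names the platelet-derived growth factor receptor *PDGFRB* and the ETS-family repressor *ETV6* as its fusion partners. *PDGFRB* (chr5:150113839-150155845, GRCh38.p14) was lowest in NALM-6. Its level there was 4.37 ppm with DMSO, 4.16 with palbociclib, 13.7 with scrambled shRNA and 8.83 with *CCND3* shRNA. In the MLL-AF4 line it was 143, 146, 213 and 241, and in the BCR-ABL line 20.3, 50.2, 20.6 and 38.2 in the same order. The 4 NALM-6 groups thus lay below all 8 others, and with DMSO *PDGFRB* was 12.3-fold lower in NALM-6. *ETV6* was 76.2 in NALM-6, 38.5 in the MLL-AF4 line and 79.9 in the BCR-ABL line with DMSO. Of the 6 partner genes that the labels name across the lines, *PDGFRB* was the one past 2-fold. The share that was 2-fold lower is thus 16.7%, beside 14.2% of all genes. The levels count reads per gene, and whether a fusion transcript was present was not tested.

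The related receptor *PDGFRA* (chr4:54229293-54298245) showed the largest fold of all named genes. NALM-6 read 377, 473, 214 and 349 ppm with DMSO, palbociclib, scrambled shRNA and *CCND3* shRNA. All 8 groups of the other lines were under the floor, with 0.0432 as the highest. *PDGFRA* was therefore at least 2452-fold higher with DMSO and at least 1368-fold higher with scrambled shRNA.

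Several other receptor kinases separated the lines. *KIT*, the stem cell factor receptor, was 42.2, 23.2, 22.9 and 37.1 in the NALM-6 groups, under the floor in the 4 groups of the MLL-AF4 line and not listed for the BCR-ABL line. *FLT1*, a receptor for vascular endothelial growth factor that was picked after its values were seen, was 67.2, 89.6, 42.6 and 58.8 in NALM-6 and at most 0.912 elsewhere. *FLT3*, the receptor of early lymphoid progenitors, showed the reverse. It was 3.54 in NALM-6 with DMSO, and 345 and 169 in the other lines, which is 68.2-fold lower. *CSF1R*, the macrophage growth factor receptor, was under the floor in the 4 NALM-6 groups and lay between 7.50 and 26.7 in the other 8.

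**Figure D2:**
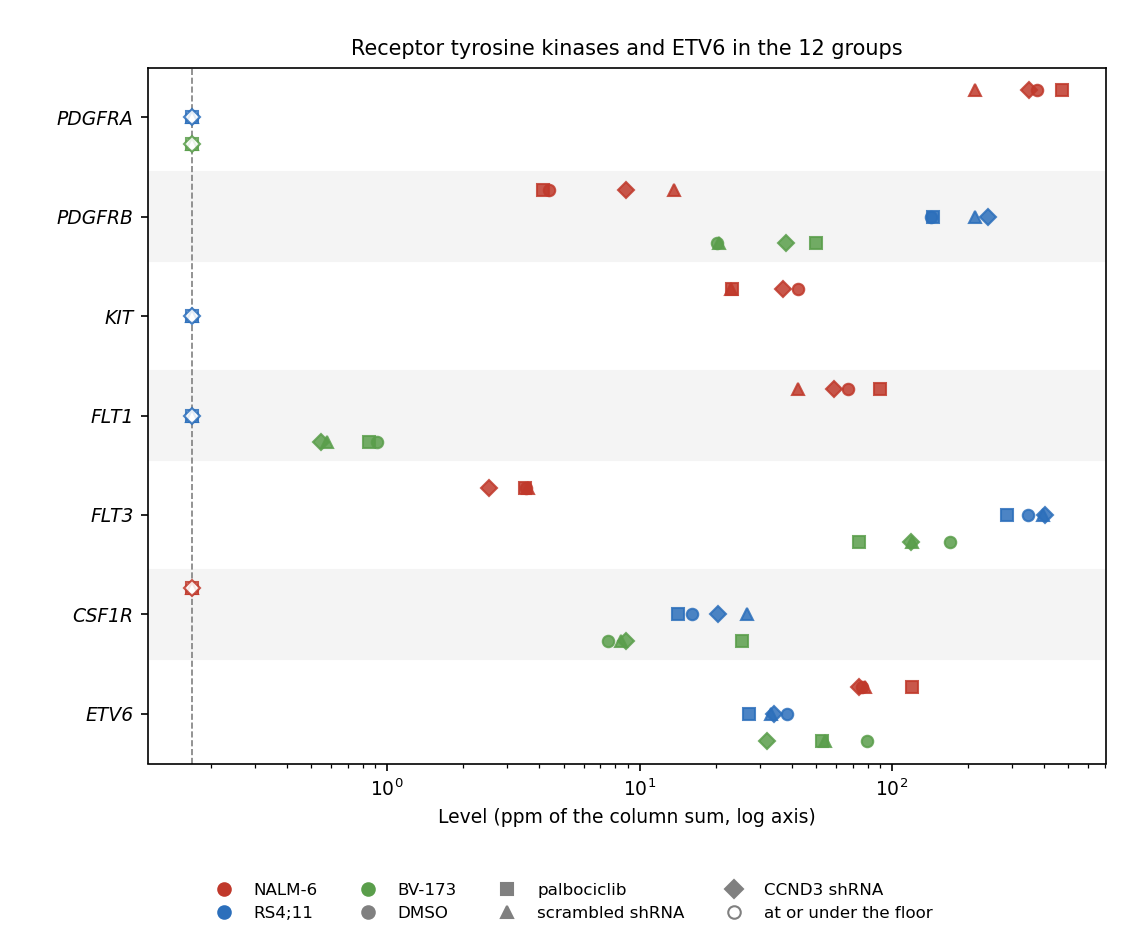
Level in ppm of the column sum on a log axis for 6 receptor tyrosine kinases and *ETV6*, with 1 point per group, coloured by line and shaped by treatment. *PDGFRA*, *KIT* and *FLT1* are read in NALM-6 and near or under the floor (dashed, open points) elsewhere, while *PDGFRB*, *FLT3* and *CSF1R* are lowest in NALM-6. *KIT* was not listed for BV-173.

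Of the 28 receptor and cytoplasmic tyrosine kinases of the list, 23 could be compared with DMSO. Of these, 5 were 2-fold higher in NALM-6 (21.7%), among them *PDGFRA*, *FGFR1*, *MERTK* and *SYK*, and *PDGFRB*, *FLT3*, *CSF1R*, *LYN*, *LCK*, *ZAP70* and *TEC* were 2-fold lower (30.4%), beside 11.3% and 14.2% of all genes. Their median log2 difference was 0.15. Kept in every group were *PDGFRA* among the higher, and *PDGFRB*, *FLT3*, *CSF1R*, *LYN* and *TEC* among the lower. The difference of *SYK*, which couples the pre-B-cell receptor to its signal, rested on the BCR-ABL line. *SYK* was 195 in NALM-6, 198 in the MLL-AF4 line and 3.44 in the BCR-ABL line. The same held for *FGFR1* and *MERTK*, which were 1.25-fold and 1.12-fold over the MLL-AF4 line with DMSO, and with scrambled shRNA *FGFR1* was lower than in that line, at 77.0 against 132.

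*DUX4*, a homeobox gene of embryonic cleavage that lies in a repeat array at the end of chromosome 4 (chr4:190173774-190185911), was on no list and was picked after its values were seen. NALM-6 read 86.0, 127, 92.6 and 132 ppm. In the BCR-ABL line *DUX4* was under the floor in all 4 groups, at most 0.0593, so that NALM-6 was at least 553-fold higher with DMSO, and in the MLL-AF4 line it was under the floor in the 2 shRNA groups and not listed in the DMSO table. The copies of *DUX4* are nearly identical, so the copy these reads came from is uncertain.

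The list of genes known to be high in *DUX4*-rearranged B-ALL holds 8 genes, of which 5 could be compared with DMSO. All 5 were 2-fold higher in NALM-6, beside 11.3% of all genes, and 4 were 2-fold higher with scrambled shRNA. The list was drawn up with earlier results of these data known. Its median log2 difference was 6.34, or 6.05 with low levels raised to the floor. *CHST2*, a sulfotransferase, was 329, 812, 382 and 731 in the NALM-6 groups, 3.51 to 10.1 in the MLL-AF4 line and under the floor in the BCR-ABL line, at least 445-fold higher with DMSO. *STAP1*, an adaptor of B-cell signalling, was 60.1, 144, 57.5 and 153 in NALM-6 and at most 6.51 elsewhere.

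*AGAP1*, a regulator of endosome traffic, was 166, 499, 115 and 388 in NALM-6, under the floor in the MLL-AF4 line and 25.5 to 41.4 in the BCR-ABL line. *CCNJ*, a cyclin of little-known function, was 58.9, 137, 47.1 and 82.8 in NALM-6 and at most 33.8 elsewhere. It was 1.82-fold over the BCR-ABL line with DMSO, and its log2 difference with scrambled shRNA was 0.87. These 4 genes were higher in every group. *PTPRM* was 2.68 with DMSO against 0.268 and 0.0978, and its groups overlapped. The lectin gene *CLEC12A*, another of the list, was 0.189, 1.88, 0.463 and 1.63 in NALM-6. It was not listed for the BCR-ABL line. In the MLL-AF4 line it was under the floor in the shRNA groups and not listed with DMSO. *CLEC12B* was listed for NALM-6 alone, and *CD2* was not listed for NALM-6 with DMSO. None of these could therefore be compared with DMSO. *ERG*, the ETS factor often altered in this subtype, was 165 in NALM-6, 141 in the MLL-AF4 line and 118 in the BCR-ABL line, a log2 difference of 0.36.

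**Figure D3:**
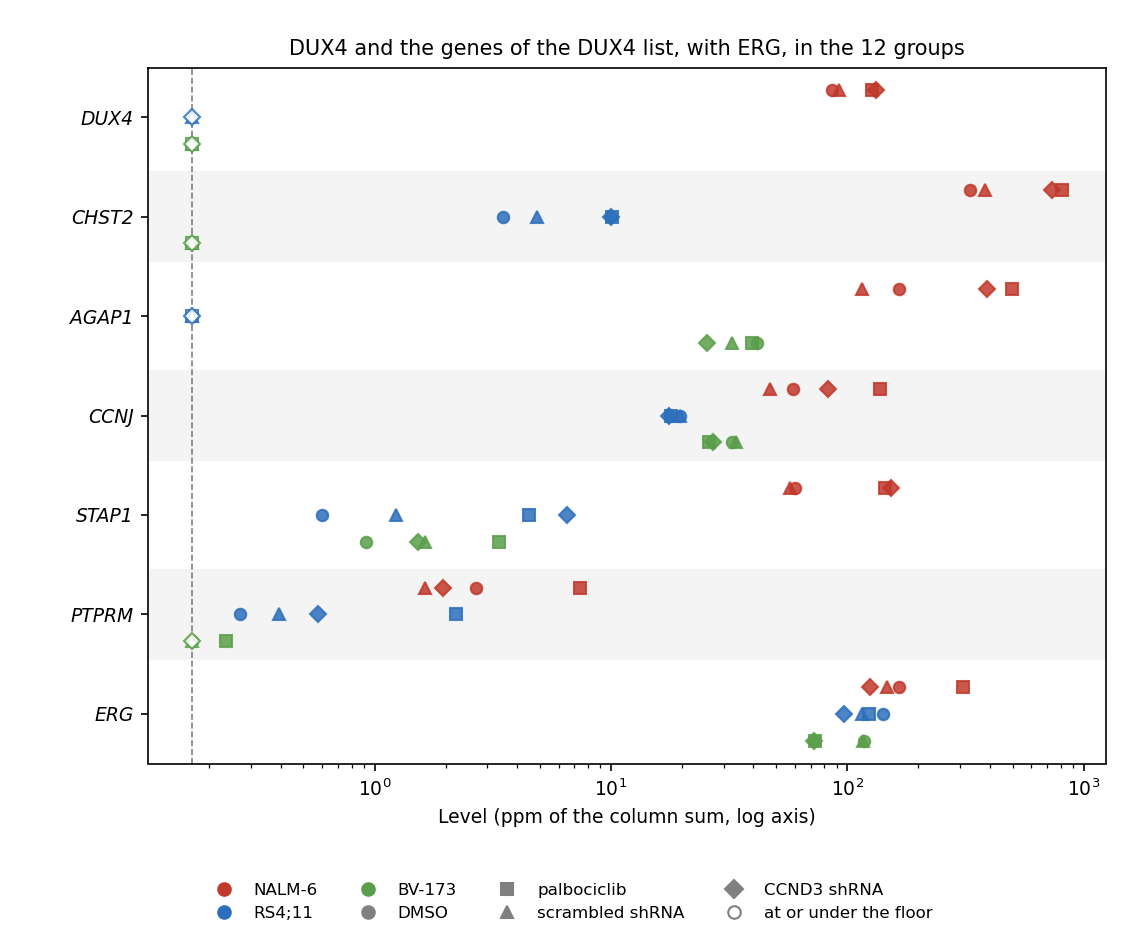
Level in ppm of the column sum on a log axis for *DUX4*, 5 genes of the *DUX4* list and *ERG*, with 1 point per group, coloured by line and shaped by treatment. The NALM-6 groups lie above all others for *DUX4*, *CHST2*, *AGAP1*, *CCNJ* and *STAP1*, and the groups overlap for *PTPRM* and *ERG*. *DUX4* was not listed for RS4;11 with DMSO or palbociclib.

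Genes known from the subtypes of the other lines gave a mixed picture. Of 20 genes of *MLL*-rearranged B-ALL, 11 could be compared. *PBX3* and *ZNF827* were 2-fold higher in NALM-6 (18.2%) and *MEIS1*, *PROM1*, *CSPG4*, *LGALS1* and *FLT3* were 2-fold lower (45.5%), beside 11.3% and 14.2% of all genes. With DMSO *PBX3* was 1.35-fold over the MLL-AF4 line, and its groups overlapped. *ZNF827* was higher in every group, though 1.61-fold over the BCR-ABL line with DMSO. The HOXA genes were under the floor or not listed in NALM-6, whereas *HOXA9* was 86.3 in the MLL-AF4 line with DMSO. *MEIS1*, the cofactor of HOXA9, was 0.0627 in NALM-6, 71.8 in the MLL-AF4 line and 0.866 in the BCR-ABL line. *PROM1* rested on the MLL-AF4 line alone, with 0.159, 535 and 0.129 in the same order. Of 9 genes of BCR-ABL B-ALL, 8 could be compared. *SOCS2* and *CCND2* were higher in NALM-6 than the mean of the other lines (25.0%, beside 11.3% of all genes), though not than the BCR-ABL line itself. *SOCS2*, a feedback inhibitor of cytokine receptors, was 205 in NALM-6, under the floor in the MLL-AF4 line and 784 in the BCR-ABL line.

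The machinery of V(D)J recombination and pre-B-cell receptor signalling was compared on 16 listed genes. *VPREB3*, *CD79B*, *RAG1*, *DNTT*, *BLNK* and *SYK* were 2-fold higher in NALM-6 with DMSO (37.5%). Lower were 3 genes (18.8%), among them *CD79A* and *LYN*. The shares of all genes were 11.3% higher and 14.2% lower. The median log2 difference of the list was 0.35. *RAG1*, a subunit of the recombinase, was 1292, 1701, 834 and 832 in the NALM-6 groups, 151 to 416 in the MLL-AF4 line and 46.0 to 183 in the BCR-ABL line. Its partner *RAG2* was 123, 228, 153 and 192 in NALM-6, above every other group, the highest of which was 87.5, and its log2 difference was 0.98 with DMSO. *DNTT*, which adds bases at the joints, was 707 in NALM-6, 10.9 in the MLL-AF4 line and 700 in the BCR-ABL line with DMSO. With scrambled shRNA it was 684, 7.07 and 282, so that NALM-6 was level with the BCR-ABL line with DMSO and 2.43-fold above it with scrambled shRNA.

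*CD79B*, a signal chain of the receptor, was 365, 516, 386 and 452 in NALM-6 and 63.4 to 157 elsewhere. The adaptor *BLNK* was 228, 327, 177 and 185 in NALM-6, 3.77 to 7.07 in the MLL-AF4 line and 64.7 to 149 in the BCR-ABL line. *CD79A*, the other signal chain, was 96.1 in NALM-6 with DMSO but 372, 344 and 336 in its other groups, so its log2 difference was −2.28 with DMSO and −0.45 with scrambled shRNA. The surrogate light chain genes were alike, with *IGLL1* at 736, 676 and 885 and *VPREB1* at 158, 159 and 122 with DMSO in NALM-6, the MLL-AF4 line and the BCR-ABL line. *LYN*, the Src kinase of B cells, was 114 to 137 in NALM-6 and 223 to 265 in the 8 other groups.

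Of 27 B-lineage transcription factors, 25 could be compared with DMSO. *FOXO1*, *BACH2*, *POU2F2*, *IRF4* and *ETS1* were 2-fold higher in NALM-6, and *BCL6*, *IRF8*, *RUNX1* and *MEF2C* were 2-fold lower. That is 20.0% and 16.0%, beside 11.3% and 14.2% of all genes, and the median log2 difference was 0.24. Only *FOXO1* and *BACH2* were kept in every group. With scrambled shRNA *RUNX1* had a log2 difference of −0.38, at 244 in NALM-6, 473 in the MLL-AF4 line and 214 in the BCR-ABL line. With that control *POU2F2* was 1.29-fold over the MLL-AF4 line, and *IRF8* was 0.605 times the BCR-ABL line. *IRF4* rested on the MLL-AF4 line, since with DMSO it was 24.8-fold over that line and 1.18-fold over the BCR-ABL line, and with scrambled shRNA it was 252 in NALM-6 and 261 in the BCR-ABL line. *FOXO1* was 252, 244, 302 and 367 in the NALM-6 groups, 16.4 to 31.3 in the MLL-AF4 line and 41.5 to 86.5 in the BCR-ABL line. With DMSO it was 15.4-fold above the MLL-AF4 line and 3.12-fold above the BCR-ABL line. *BACH2*, a repressor that guards the pre-B-cell checkpoint, was 449, 743, 323 and 503 in NALM-6 and at most 52.9 elsewhere.

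For *PAX5* and *EBF1* the 4 NALM-6 groups lay above the 8 others, with log2 differences of 0.39 and 0.66 with DMSO. *PAX5* was 815 to 966 in NALM-6 and 391 to 770 elsewhere, and *EBF1* was 330 to 380 against 148 to 265. *MEF2C* was 113 in NALM-6 with DMSO and 279 to 409 in its other groups, which overlapped the 395 to 1284 of the other lines. *BCL6* was 15.1, 14.9, 57.0 and 14.9 in the NALM-6 groups, with scrambled shRNA apart from the other 3, and its log2 difference was −1.67 with DMSO and −0.29 with scrambled shRNA.

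**Figure D4:**
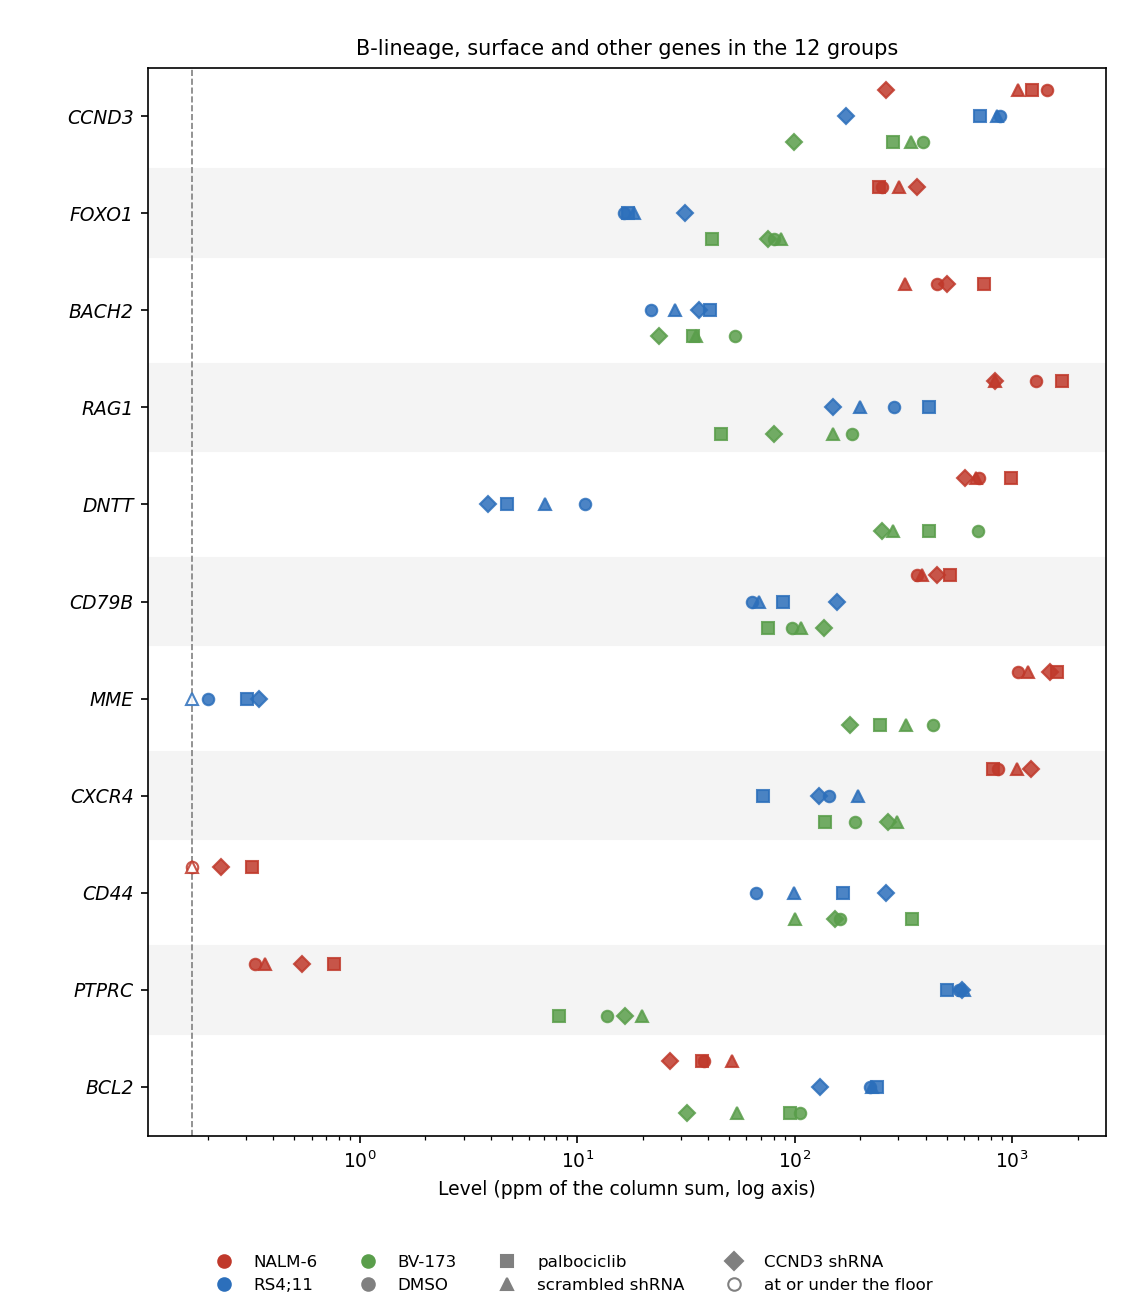
Level in ppm of the column sum on a log axis for 11 genes of the B-lineage, surface and other lists, with 1 point per group, coloured by line and shaped by treatment. The NALM-6 groups lie above all others for *FOXO1*, *BACH2*, *RAG1*, *CD79B*, *MME* and *CXCR4*, and below all others for *CD44* and *PTPRC*. *CCND3* is lowest in each line with its own shRNA.

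*CCND3*, the D-type cyclin that the study silenced, was 1447 ppm in NALM-6 with DMSO, 881 in the MLL-AF4 line and 387 in the BCR-ABL line. NALM-6 was the highest and the BCR-ABL line the lowest with each treatment. The levels were 1233, 715 and 282 with palbociclib, 1065, 850 and 342 with scrambled shRNA, and 262, 172 and 99.2 with *CCND3* shRNA. The log2 difference of NALM-6 was 1.31 with DMSO and 0.98 with scrambled shRNA. The order of the other lines was the reverse for *FOXO1*, which was lower in the MLL-AF4 line than in the BCR-ABL line.

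FOXO factors bind the motif GTAAACA. One of the 3 promoter windows of *CCND3* in RefSeq (250 bases before to 50 after an annotated start) held it on either strand, as did 3.42% of all 35116 windows. The window is shown because both the cyclin and *FOXO1* were higher in NALM-6, and the motif is in capitals at bases 249 to 255, at the annotated start (chr6:42048639-42048938, minus strand, GRCh38.p14). The match is a description and says nothing about binding in these cells. The study placed a GTAAACA motif upstream of the *CCND3* start that it used. It reported binding there in NALM-6 cells given an active form of FOXO1. Whether that motif is the one shown here was not tested.
CCND3 promoter: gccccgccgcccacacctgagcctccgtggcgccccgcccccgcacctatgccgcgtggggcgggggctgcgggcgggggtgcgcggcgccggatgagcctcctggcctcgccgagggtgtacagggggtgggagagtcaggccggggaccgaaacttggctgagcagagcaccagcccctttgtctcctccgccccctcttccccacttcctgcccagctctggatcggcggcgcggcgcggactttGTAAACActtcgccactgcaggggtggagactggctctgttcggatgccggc

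The D-type cyclins were also compared per gene length, on a scale in which each level is divided by the listed length and then given in ppm. On that scale *CCND3* was 1440 in NALM-6 with DMSO, *CCND2* was 1.20 and *CCND1* was 0.0309. *CCND3* was the 110th highest of the 15614 genes listed for NALM-6. In the MLL-AF4 line the next cyclin was *CCND1* at 2.79, below a *CCND3* level of 883. In the BCR-ABL line it was *CCND2* at 14.0, below a *CCND3* level of 379.

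Of the 15 D-type cyclins, partners and inhibitors, *CCND2*, *CCND3*, *CDKN1A*, *CDKN1C*, *E2F1* and *E2F2* were 2-fold higher in NALM-6 with DMSO (40.0%). *CCND1* was 2-fold lower (6.67%), and the shares of all genes were 11.3% higher and 14.2% lower. The median log2 difference of the list was 0.58. With scrambled shRNA 4 were higher and 1 lower. *CDKN1A* rested on the BCR-ABL line, since it was 1.30-fold over the MLL-AF4 line with DMSO. With scrambled shRNA it was 404 in NALM-6 and 458 in the MLL-AF4 line. *E2F1* had a log2 difference of 1.17 with DMSO and 0.65 with scrambled shRNA. *E2F2*, an activator of S-phase genes, was 336 in NALM-6 with DMSO against 125 and 93.0, and 493 with scrambled shRNA against 196 and 123. *CCND1* was under the floor in all 4 NALM-6 groups and 5.68 in the MLL-AF4 line with DMSO. *CDK6*, the kinase partner, was 433 in NALM-6, 1427 in the MLL-AF4 line and 265 in the BCR-ABL line, and *CDK4* was 231, 192 and 232. *CCND2* was 3.74 in NALM-6 with DMSO and 14.4 to 35.5 in its other groups, against 0.0707 and 44.3 in the other lines, and it was 1.45-fold higher once the low level was raised to the floor.

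With DMSO, surface antigens were lower more often than higher. Of 35 antigens of the list, 32 could be compared, of which 7 (21.9%) were 2-fold higher and 14 (43.8%) 2-fold lower in NALM-6, beside 11.3% and 14.2% of all genes, and the median log2 difference was −0.72. With scrambled shRNA the counts were nearly even, with 10 higher and 11 lower. *MME*, the common ALL antigen CD10, was 1060, 1605, 1180 and 1488 in the NALM-6 groups, 179 to 431 in the BCR-ABL line and at most 0.344 in the MLL-AF4 line. The chemokine receptor *CXCR4* was 861, 816, 1049 and 1218 in NALM-6 and at most 297 elsewhere. The other higher antigens were *CD24*, *CD34*, *CD38* and *CD83*. *CD24* and *CD38* rested on the MLL-AF4 line, since with DMSO they were 1.23-fold and 1.34-fold over the BCR-ABL line, and with scrambled shRNA they were 0.729 and 0.906 times its level. *CD200*, an inhibitory ligand, was 4.42, 7.48, 4.07 and 2.85 in NALM-6 and at most 0.252 elsewhere.

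The adhesion receptor *CD44* was 0.123, 0.318, 0.132 and 0.230 in the NALM-6 groups and 66.7 to 348 in the other 8, at least 675-fold lower with DMSO. *ANPEP*, the aminopeptidase CD13, was at most 0.683 in NALM-6 and 31.7 to 71.9 elsewhere. *NT5E*, the ectoenzyme CD73, was under the floor in all NALM-6 groups and 4.83 to 22.4 elsewhere. Also lower in every group were *CD22*, *CD52*, *CD99*, *CD40* and *ITGA5*. *CD52*, the target of alemtuzumab, was 6.01 to 9.82 in NALM-6 and 84.6 to 526 elsewhere, and *CD22* was 66.2 to 257 against 378 to 1171. *MS4A1*, the gene of CD20, was 0.233 with DMSO and 7.97 to 13.8 in the other NALM-6 groups.

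Among 20 genes of cytokine and JAK-STAT signalling, 17 could be compared, with a median of −0.23. Of these, 1 was 2-fold higher (*SOCS2*, 5.88%) and 5 were lower (29.4%), beside 11.3% and 14.2% of all genes. *IFNGR2*, a chain of the interferon gamma receptor, was 0.0406, 0.0323, 0.0402 and 0.0496 in the NALM-6 groups, all under the floor, and 21.1 to 62.0 in the other 8. It was at least 313-fold lower with DMSO, while the other chain, *IFNGR1*, was 48.1 in NALM-6 against 37.0 and 50.6. *PTPRC*, the leukocyte phosphatase CD45, was 0.329, 0.760, 0.368 and 0.544 in NALM-6, 502 to 602 in the MLL-AF4 line and 8.28 to 19.9 in the BCR-ABL line. *IL7R*, the receptor chain that pre-B cells depend on, was 196 in NALM-6 against 240 and 136.

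Of the 3 genes of the *CDKN2A* locus, *MTAP* could be compared. It was under the floor in NALM-6 and in the MLL-AF4 line and 78.7 in the BCR-ABL line with DMSO. *CDKN2A*, the gene of the CDK4/6 inhibitor p16, was listed in NALM-6 only in the shRNA table, at 0.0446 and 0.0423, and *CDKN2B* was not listed for NALM-6.

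Most of the 15 MHC class II genes were within 2-fold of the other lines. *HLA-DRA* was 353 in NALM-6 with DMSO against 332 and 308, and the master regulator *CIITA* was 49.9 against 86.3 and 52.9. *HLA-DQA1*, at 0.534 against 18.2 and 10.1, and *HLA-DQB1*, at 15.7 against 69.2 and 66.4, were the 2 that were lower. That is 13.3% of the list, near the 14.2% of all genes. These genes are highly polymorphic and have close paralogs, so their levels are uncertain.

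Interferon-stimulated genes went both ways with DMSO, with 5 of 22 higher (22.7%) and 6 lower (27.3%), beside 11.3% and 14.2% of all genes, and a median log2 difference of 0.16. With scrambled shRNA 8 were higher and 4 lower. The lowest were *IFITM1* and *IFITM3*, of a family of membrane proteins that restrict viral entry, while *IFITM2* was 411 in NALM-6 with DMSO at a log2 difference of −0.44. *IFITM1* was 2.67, 0.753, 3.40 and 1.88 in the NALM-6 groups and 38.9 to 237 elsewhere, and *IFITM3* was 0.480 to 0.572 against 2.67 to 180. The IFITM genes are close paralogs, which can share reads. *IFIT1*, a sensor of viral RNA, was 6.79 to 18.9 in NALM-6 and 1.01 to 6.33 elsewhere. Of 16 genes of the BCL2 family, *BIK* and *HRK* were higher and *BCL2* and *BMF* lower with DMSO, 12.5% each way and near the 11.3% and 14.2% of all genes, with a median of 0.12. *BCL2*, the survival gene, was 38.3, 37.7, 51.3 and 26.7 in NALM-6, 131 to 240 in the MLL-AF4 line and 31.9 to 106 in the BCR-ABL line, whose *CCND3* shRNA group overlapped the range of NALM-6. *HRK*, a BH3-only gene, was 7.62 to 24.9 in NALM-6 and at most 4.64 elsewhere.

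Proliferation and housekeeping genes bear on how like the cultures and scales were. Of 20 proliferation genes, *CCNB1*, *AURKA* and *PLK1* were 2-fold higher in NALM-6 with DMSO (15%) and *MCM4* was lower (5%). The shares of all genes were 11.3% higher and 14.2% lower, so the higher share was near that of all genes. The median of the list was 0.45, and with scrambled shRNA 2 were higher and 1 lower. *CCNB1* and *AURKA* were both just past the threshold, at 1.03 on the log2 scale. *MKI67* was 675 in NALM-6 against 702 and 350. Of 12 housekeeping genes, *YWHAZ* was 2-fold lower (8.33%, beside 14.2% of all genes) and the rest were within 2-fold, with a median of 0.21. *YWHAZ* and *MCM4* both lie on chromosome 8. The part that growth rate has in the other differences was not tested.

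Lists for other cell types held few genes that could be compared. None of the 11 T-cell genes could be compared in all 3 lines with DMSO, and *CD4* was 2.71 in NALM-6 and under the floor in the MLL-AF4 line. Of 11 myeloid genes, 3 could be compared and *LYZ* was higher. Of 11 erythroid and megakaryocyte genes, the integrin *ITGA2B* was higher, at 2.38 against 0.705 and 0.0729, and *GP9* was lower. Of 7 stromal genes, *PDGFRA* and *COL1A1* were compared, and *COL1A1* was 1.61 in NALM-6, 6.17 in the MLL-AF4 line and under the floor in the BCR-ABL line, which left it less than 2-fold above the mean of the lines when computed at the floor.

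Outside the lists, the 15 genes with the largest log2 difference of the levels as deposited, among those higher in every group, were *SNRPN*, *ANKRD30B*, *MAP1B*, *MPPED2*, *ABCG1*, *ISM1*, *TMCC3*, *SLC16A14*, *NSG1*, *ALOX5*, *SPP1*, *S1PR3*, *FAM221A*, *PRRT4* and *PRUNE2*. All 15 were under the floor in both other lines with DMSO, and they were at least 98.8-fold to 894-fold higher. Their choice rests on levels under the floor, so neither their order nor their place ahead of genes outside the 15 can be read. One such gene, picked after its values were seen, was *CALD1*, an actin-binding protein, at 19.1 to 38.2 in the NALM-6 groups and at most 0.154 elsewhere. *SNRPN*, an imprinted splicing gene, was 104, 151, 113 and 130 in the NALM-6 groups and at most 0.0219 elsewhere, and it overlaps *SNURF*, with which it can share reads. The cholesterol exporter *ABCG1* was 111, 220, 103 and 233 against at most 0.136. *ALOX5*, which makes leukotrienes, was 87.5, 242, 127 and 232 against at most 0.278. *MAP1B*, a microtubule protein of neurons, was 127, 48.0, 228 and 119 against at most 0.354. *SPP1*, the gene of osteopontin, was 25.2, 22.5, 35.2 and 156.

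Chosen in the same way, with the same limit, the 15 lower genes were *SEL1L3*, *CTGF*, *MEST*, *PLD1*, *SPART*, *METRNL*, *SYT1*, *SUCLG2*, *IGFBP7*, *LRP5*, *FAM84B*, *SLC36A4*, *ARHGEF12*, *HTRA3* and *S100A11*. All 15 were under the floor in NALM-6 with DMSO, and they were at least 127-fold to 794-fold lower. Outside the 15, and again picked after its values were seen, *PRDX2*, a peroxidase of red cells and many tissues, was under the floor in the 4 NALM-6 groups and 82.4 to 174 elsewhere. *SUCLG2*, a subunit of a citric acid cycle enzyme, was 0.0394, 0.0485, 0.0996 and 0.148 in NALM-6 and 86.0 to 146 in the other 8 groups. *MEST*, an imprinted gene, was 0.0165, 0.0179, 0.0605 and 0.0741 against 84.5 to 122. *CTGF*, a matricellular growth factor, was at most 0.0120 against 25.7 to 122. The Wnt coreceptor *LRP5* was at most 0.107 against 54.5 to 109. Across the genome, 20 genes were read at 5 ppm or more in the 4 NALM-6 groups and lay under the floor in the 8 others, and 43 genes showed the opposite pattern. These thresholds were set after the levels were seen.

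Some genes were listed for 1 side only and allow no fold. In both NALM-6 tables and none of the other 4, 157 genes were listed, of which 19 reached 1 ppm with DMSO. The highest of them were *FAT1*, *SPR*, *PCOLCE2*, *LACTB2*, *SLC2A8*, *TENM4*, *ADAMTS3*, *CTSF*, *GALNT12* and *TBC1D3D*. *FAT1*, a giant cadherin, was 22.0, 33.4, 30.0 and 31.2, and *SPR*, an enzyme of tetrahydrobiopterin synthesis, was 16.3, 19.3, 14.8 and 15.4. *TBC1D3D* belongs to a family of near-identical copies and its level is uncertain.

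In the 4 tables of the other lines and neither NALM-6 table, 130 genes were listed, of which 13 reached 1 ppm with DMSO in both lines. The highest were *DENND1B*, *CPNE8*, *LY75-CD302*, *IQCJ-SCHIP1*, *TSNARE1*, *ZIC5*, *TIGD2*, *NOTUM*, *ERFE* and *GDAP1*. *DENND1B*, a regulator of receptor traffic, was 15.3 to 26.4 in the MLL-AF4 line and 49.4 to 82.1 in the BCR-ABL line. *LY75-CD302* and *IQCJ-SCHIP1* are readthrough genes that share exons with their neighbours, so their levels are uncertain.

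By chromosome, the genes of chromosome 8 stood apart. The median log2 difference of its 376 genes was −0.74 with DMSO and −0.55 with scrambled shRNA, while the medians of the other autosomes lay between −0.18 and 0.23 with DMSO. On chromosome 8, 67 genes (17.8%) were 2-fold higher in NALM-6 and 138 (36.7%) were 2-fold lower. The direction differed along the chromosome. The 133 genes before 45 Mb had a median of 0.79, with 54 higher and 10 lower, and the 243 genes after 45 Mb had a median of −1.04, with 13 higher and 128 lower.

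Against single lines, the genes after 45 Mb had a median of −0.60 over the MLL-AF4 line and −1.52 over the BCR-ABL line, and those before 45 Mb had 0.91 and 0.93. The genes before 45 Mb were not uniform. The windows from 0 to 15 Mb and from 15 to 30 Mb had medians of 1.22 and 0.96, with 1.08 and 1.11 against the BCR-ABL line. The 49 genes from 30 to 45 Mb had 0.10, with 0.89 against the MLL-AF4 line and −0.84 against the BCR-ABL line, so against the latter the sign changed before 45 Mb. The 7 windows after 45 Mb lay between −1.30 and −0.81. Chromosome 15 was low against the MLL-AF4 line alone (−0.58 for 389 genes) and chromosome 9 was high against the BCR-ABL line alone (0.55 for 451 genes). The copy number of these regions in the cultures was not tested.

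**Figure D5:**
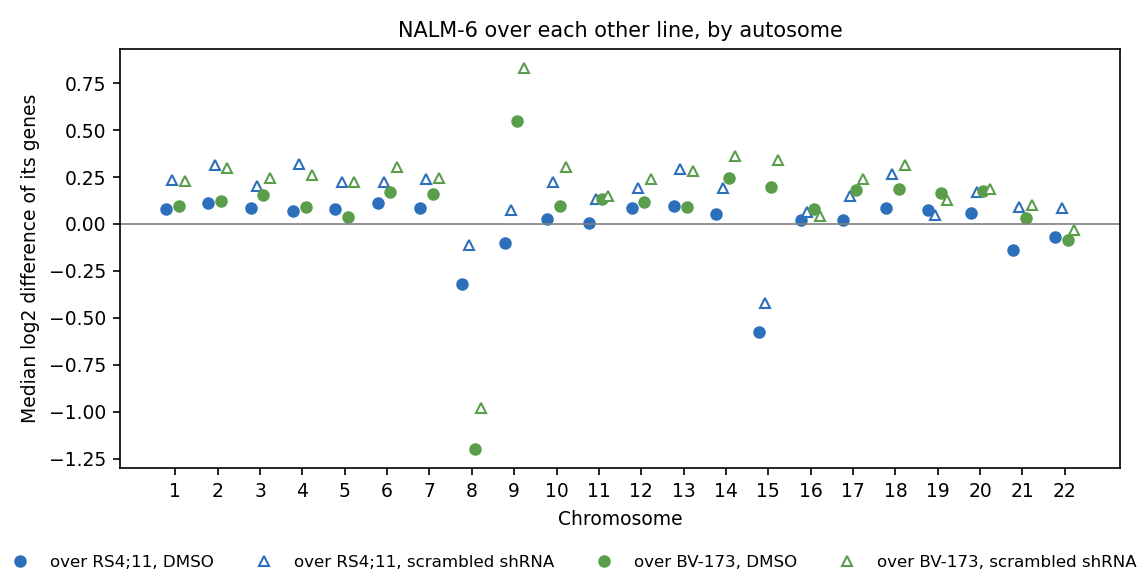
Median log2 ratio of NALM-6 over each other line for the genes of each autosome, with DMSO (filled circles) and with scrambled shRNA (open triangles). Chromosome 8 lies lowest against BV-173, at −1.20 with DMSO, chromosome 15 lowest against RS4;11, at −0.58, and chromosome 9 highest against BV-173, at 0.55.

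The DMSO group of NALM-6 also stood apart from the other NALM-6 groups at a set of genes. Of 11526 genes, 372 (3.23%) were at least 2-fold lower with DMSO than in each of the other 3 groups, and 13 were 2-fold higher. In the MLL-AF4 line 121 of 11858 genes (1.02%) were lower in this way, and in the BCR-ABL line 37 of 11047 (0.335%). Among members of the lists these included *MS4A1*, *BMF* and *CCND2*. *BMF*, a BH3-only gene, was 2.63 with DMSO and 19.2, 21.5 and 21.1 in the other groups, and its log2 difference from the other lines was −3.64 with DMSO and −1.13 with scrambled shRNA. For such genes the low level belongs to the DMSO samples and not to every NALM-6 group.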

How the data were processed

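Poly(A)-enriched RNA of 3 B-ALL lines was sequenced by the authors in 34 samples of 12 groups. Per the labels, the processing used Bowtie2, RSEM and DESeq2 on build hg38, whose versions are not given in the sources used here. The authors' 6 deposited tables each hold 2 groups of 1 line, with 1 signal per gene and group (a level normalized within the table and pooled over replicates), the gene length, and their own log2 fold change, p-value and adjusted p, which were not used. The strandedness of the counting is not given in the sources used here, so overlapping genes cannot be told apart.

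Each signal column was scaled to a sum of 1000000 (ppm). For genes in the 3 DMSO tables with a highest level of at least 1 ppm, the log2 ratio of NALM-6 over the geometric mean of the other 2 lines was taken, and 2-fold was called. The same was done with the scrambled shRNA columns. With 1 level per group, no test was run. Genes of 21 lists were followed (1 list and some single genes are not reported here), and named besides were the 15 genes per direction with the largest difference among those called in every group at 10 ppm or more, and the 10 highest genes listed for 1 side alone, without *XIST*, Y-linked and LOC genes. *DUX4*, *FLT1*, *CALD1*, *PRDX2* and the genes of the within-line comparison were chosen after their values were seen. The members and lists were chosen with earlier results of these data known. Positions and promoter windows are those of RefSeq, GRCh38.p14. The alternatives were other scalings, filters, folds, references and controls. Steps were tested on simulated data. Python 3.11.15, pandas 2.3.3, numpy 2.4.6 and matplotlib 3.10.9 were used.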

Additional observations from a re-analysis of the deposited data

How the results depend on the processing

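The counts of genes higher or lower in NALM-6, with DMSO and in every group, stayed within 1.5 times of the values given under 4 other scalings, 1 ppm added before the log, no filter or a filter at 10 ppm, and 2 alternatives added after the data were seen, low levels raised to the floor and leaving out chromosome 8. The DMSO counts also did so with an arithmetic mean or a single line as the reference, genes listed in all 6 tables and the scrambled shRNA columns, and the counts in every group with the 2 controls alone. The fold threshold moved them. At 1.5-fold, 2542 genes were higher with DMSO and 1302 in every group. At 4-fold, 623 were higher and 910 lower with DMSO, and 397 were higher in every group. Higher genes made up 44.4% of the calls, 40.0% with median of ratios scaling, 35.1% with the arithmetic mean and 55.5% with scrambled shRNA, which moved the median of all genes by 0.11.

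Of 268 named genes compared, 131 were 2-fold apart, and 16 of the 1683 log2 differences recomputed for them changed sign, none of them under another scaling. With scrambled shRNA, *MS4A1* was 0.0426 and *MX2* 0.24. With BV-173 as the only reference, *LCK* was 0.40, *PROM1* 0.30, *SOCS2* −1.94, *CCND2* −3.56 and *MX2* 0.40. With RS4;11 as the only reference, *SYK* was −0.0235, *OAS3* −1.13 and *COL1A1* −1.94. With the arithmetic mean, *SOCS2* was −0.94, *CCND2* −2.57, *OAS3* −0.16 and *COL1A1* −0.94. With 1 ppm added, *CCND2* was −0.55 and *COL1A1* −0.0504. No paired analysis was possible because the deposited columns pool the replicates, and for the same reason no replicate could be left out.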

Other observations

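Neighbouring genes shared their direction in places. Of 11538 genes listed in all 6 tables that reached 1 ppm with DMSO, those on the autosomes were ordered by position. In NALM-6, 34 runs of at least 3 neighbours were 2-fold higher with both controls and 41 runs were 2-fold lower. Of these, 7 and 9 lay on chromosome 8, which held 376 of the ordered genes. With DMSO, 11.3% of all genes were higher and 14.2% lower. The number of runs that a random order of genes would give was not tested. On chromosome 16 the metallothionein genes *MT1G*, *MT1H* and *MT1X*, which bind zinc and copper, were higher, with log2 differences from 3.32 to 9.24. On chromosome 6 the genes *ULBP2*, *ULBP1* and *ULBP3*, ligands of the natural killer receptor NKG2D, were higher, from 1.52 to 3.40. On the same chromosome *TNF*, *LTB*, *LST1*, *NCR3* and *AIF1* were lower, from −7.85 to −1.60. The lymphocyte receptor genes *SLAMF1*, *CD48*, *LY9* and *CD244* on chromosome 1 were lower, from −7.24 to −1.79, and on chromosome 16 a run with the integrin genes *ITGAM* and *ITGAX* was lower, from −7.40 to −1.27. Near-identical copies within the metallothionein family make single members uncertain. The log2 differences of the runs were taken from the levels as deposited. Where a level was under the floor, they overstate what the levels can show. These runs were picked out after their values were seen.

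Imprinted genes were found at both ends of the range, *SNRPN* read in NALM-6 alone and *MEST* read in the other lines alone, both picked out here after their values were seen. *SNURF*, which overlaps *SNRPN*, was 0.702, 1.29, 1.09 and 0.564 in the NALM-6 groups and was not listed for the other lines with DMSO. Allele-specific levels were not analysed here.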
